A study of Mus musculus with 5 samples.

Results

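The cytosolic ribosomal protein genes were described in colon tumors of mice that did or did not express human Siglec-XII in the intestinal epithelium. Members were chosen by symbol alone. A gene was a member if its symbol was Rpsa, or Rps, Rpl or Rplp followed by digits and at most an a, x or l with further digits, which leaves out the entries with -ps names and the Rps6k kinases. The rule found 89 genes among the 52143 entries of the deposited table: 36 of the small subunit, 50 of the large subunit and 3 of the P-stalk. GENCODE M21 annotates 83 of them as protein coding and 6 as pseudogenes.

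Ribosomal proteins fold around the ribosomal RNAs to form the small subunit, which reads the mRNA, and the large subunit, which joins the amino acids. The P-stalk of the large subunit recruits the elongation factors. Mammalian ribosomal protein mRNAs share a terminal oligopyrimidine (TOP) stretch at the 5′ end, through which mTORC1 and LARP1 set their translation, and the proteins are made in near-equal numbers, so that these genes usually vary together. The genes lie on many chromosomes, and most have processed pseudogenes that derive from their mRNA.

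Control samples (replicates 1 and 4) came from Villin1-Cre-ERT mice. SIGLEC12 samples (replicates 2, 3 and 4) came from SIGLEC12-Villin1-Cre-ERT knock-in mice, in which human SIGLEC12 follows a loxP-flanked egfp with a stop codon and is switched on in cells in which the villin promoter drives the tamoxifen-inducible Cre. By the study's methods the animals were female and 8 weeks old at the start. Every mouse of both groups received tamoxifen (10 mg/ml, 5 days), the carcinogen azoxymethane (AOM, 10 mg/kg) and repeated cycles of dextran sodium sulfate (DSS, 2.0% for 5 days with 14 days of recovery), and tumors were taken on day 87. The comparison asks which transcripts differ when the epithelium of these tumors expresses Siglec-XII. The level of the human transgene was not analysed here, so the labels were not checked against it.

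The values are TPM, transcript abundances corrected for length and scaled to the same total in every sample, which keep no record of sequencing depth. Entries annotated as miRNA held 77.2% to 86.0% of the TPM in each sample, and protein-coding genes 5.70% and 6.73% in the Control samples and 8.75% to 9.72% in the SIGLEC12 samples. Nearly all of the miRNA share lay in 4 of the 2207 miRNA entries, Mir6236 among them, which held 77.2% to 85.9%. Which RNA the reads of these 4 entries came from was not tested. This total moves with the groups, so the main comparisons are given as deposited and also rescaled, that is with the protein-coding genes of each sample set to a common total. Columnar epithelial markers were present in all samples (14 of 14 genes tested, summed TPM 504 and 1498 in Control, 1464 to 2324 in SIGLEC12). Squamous epithelial markers were also present (11 of 11 tested) and summed to 3118 TPM in Control replicate 1 against 739 in Control replicate 4 and 505 to 1216 in the SIGLEC12 samples. The 6 T cell markers stayed under 1 TPM in every sample. Fibroblast markers (7 of 8 tested) summed to 11.3 and 11.4 TPM in Control and to 19.3 to 63.8 in SIGLEC12. The part of these cell mixtures in the results below was not tested, and in bulk tissue fewer cells of a type and less RNA per cell cannot be told apart. The samples are taken as separate mice from the labels, and p-values measure only the spread between these samples.

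Ribosomal protein genes were among the highest protein-coding transcripts. Of the 89 members, 81 reached 1 TPM in at least 2 samples and were tested, and 71 of these 81 stood in the top 5% of the 10338 tested genes by mean TPM. On average 32 members exceeded 100 TPM, 44 lay between 10 and 100 TPM, and 5 tested members lay under 10 TPM. The 5 highest members together held 14.5% of the summed member TPM.

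The 8 members that were not tested were at 0.732 TPM or less in every sample. Rpl10l was listed at 0 in all 5 samples and Rpl39l in 4 of them. Both are testis-enriched copies of X-linked genes. Rpl3l, the paralog of Rpl3 known from heart and skeletal muscle, ranged from 0 to 0.215 TPM. The pseudogene entries Rps4l, Rpl32l, Rpl6l, Rps3a2 and Rps3a3 had mean levels between 0.0292 and 0.529 TPM.

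**Figure D1:**
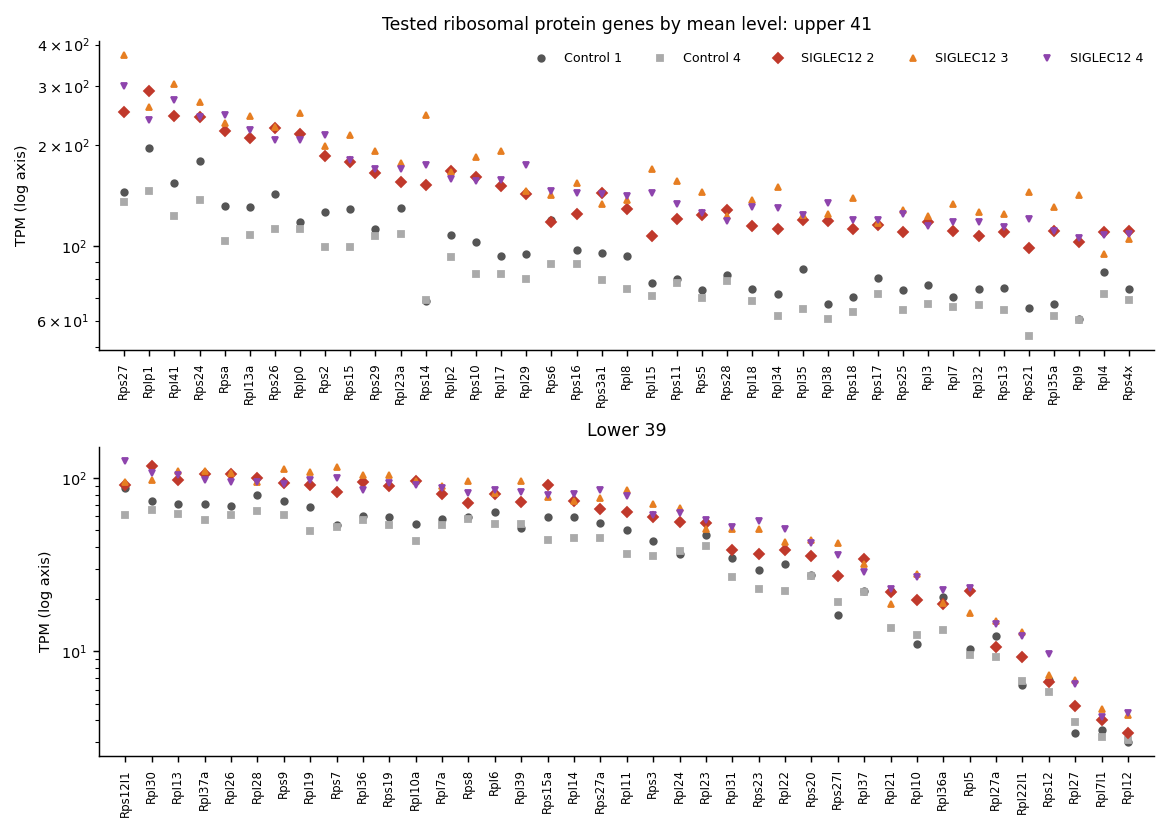
Level of 80 of the 81 tested ribosomal protein genes in the 5 samples, in TPM on a log axis, ordered by mean level over 2 rows of genes. The SIGLEC12 points lie above both Control points for 75 of these 80 genes, and Control replicate 4 is the lowest sample for 72.

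As deposited, every tested member had a higher mean in the SIGLEC12 samples than in the Control samples. The median log2 fold change was 0.71, with quartiles of 0.59 and 0.85, beside a median of 0.38 over all tested genes. No member passed an adjusted p of 0.05 with a change of at least 2-fold, higher or lower, and neither did any of the 10338 genes (0.0% in each direction, limma with Benjamini-Hochberg adjustment). The smallest adjusted p was 0.0974, for members and for all genes. At an unadjusted p of 0.05 or less and at least 2-fold, 4 of 81 members were higher and 0 lower, against 3.97% and 0.445% of all tested genes. At an unadjusted p of 0.05 or less with no fold limit, 63 members (77.8%) were higher and 0 lower, against 33.4% and 0.909% of all genes. The groups did not overlap, with SIGLEC12 higher, for 76 members (93.8%), beside 54.1% of all genes, and with SIGLEC12 lower for 0 members, beside 1.67%.

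Genes at a similar level differed by a similar amount. Among the 456 tested protein-coding genes outside the family whose mean level fell between the tenth and ninetieth percentiles of the members (18.6 to 171 TPM), the median log2 fold change was 0.77 as deposited, and the groups did not overlap, with SIGLEC12 higher, for 73.7%. For the 173 of these genes with transcripts of up to 1000 bases, the length of most ribosomal protein mRNAs, the median was 0.84 and the share 80.3%. The members' changes were also closer to each other than those of all genes: the SD of the log2 fold change was 0.22 over the 81 members and 0.42 over the 10338 genes, and 63 members lay within 0.25 of the family's median.

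After rescaling, little of the difference between the groups was left. The median over all tested genes moved from 0.38 to 0.01 and that over the members from 0.71 to 0.16, with 65 members higher and 16 lower. Only Rps14 kept an unadjusted p of 0.05 or less (1 of 81 higher, 0 lower), where 4.45% of all genes were higher and 6.31% lower. The groups did not overlap for 11 members, all higher in SIGLEC12 (13.6%), beside 15.6% of all genes higher and 16.8% lower. The smallest adjusted p of a member was 0.457. For the level-matched protein-coding genes outside the family the rescaled median was 0.24 and 34.6% did not overlap in the higher direction. Over all genes, the calls at an unadjusted p of 0.05 and 2-fold turned from 410 higher and 46 lower as deposited to 38 higher and 142 lower after rescaling.

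**Figure D2:**
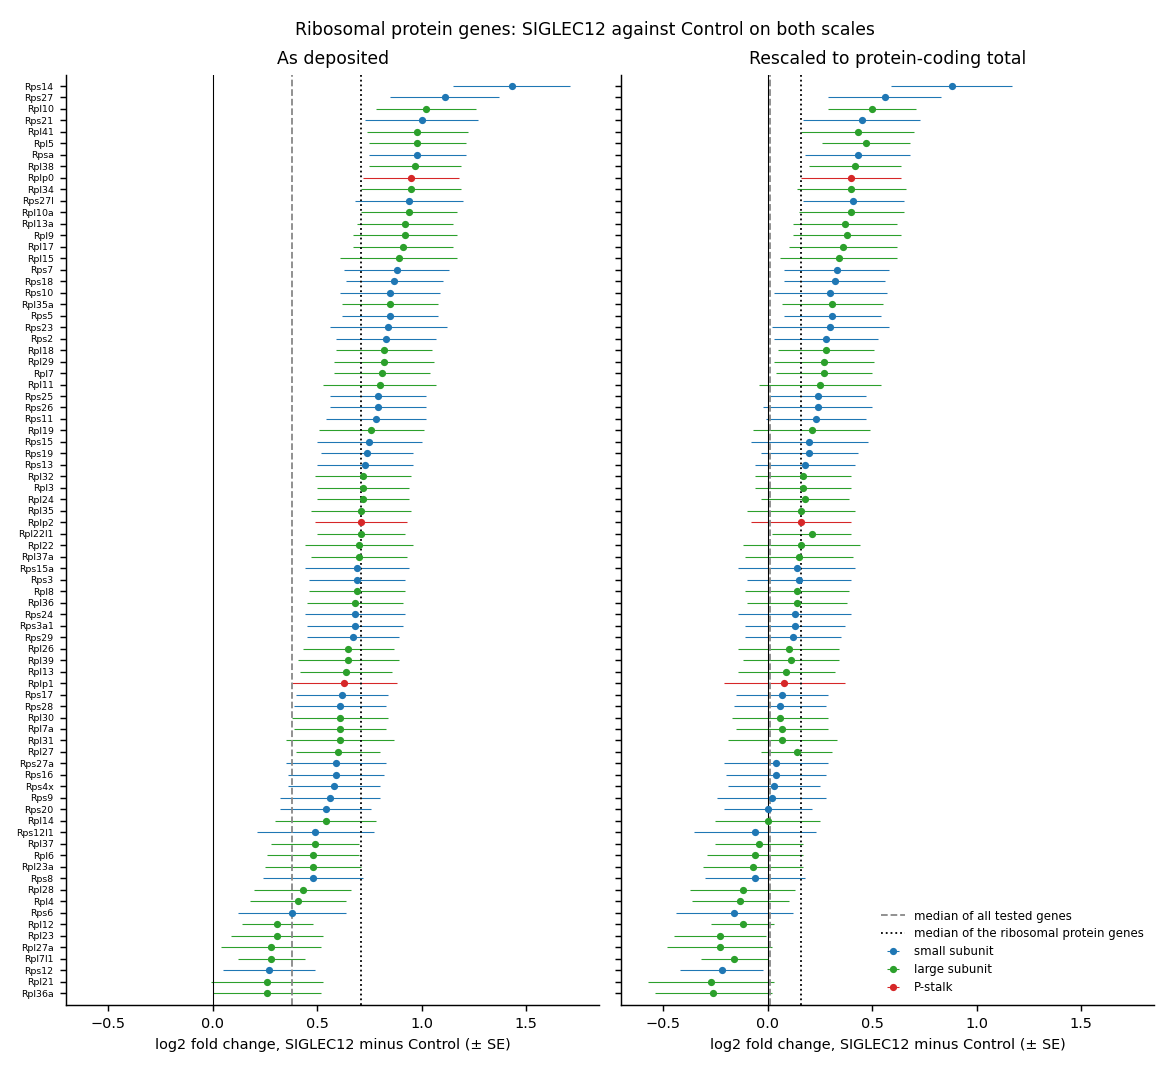
Log2 fold change of 80 of the 81 tested ribosomal protein genes, SIGLEC12 minus Control, with its standard error, as deposited (left) and rescaled (right), in the same order of genes. Dotted lines mark the family's median (0.71 and 0.16) and dashed lines the median of all 10338 tested genes (0.38 and 0.01).

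The summed level of the family shows where the scale matters. Member TPM summed to 5888 in Control replicate 1, 5013 in Control replicate 4, and 8668, 9890 and 9208 in SIGLEC12 replicates 2, 3 and 4. The groups do not overlap, and the SIGLEC12 mean was 1.70 times the Control mean. Protein-coding genes summed to 56980 and 67349 TPM in Control and to 88459, 87505 and 97158 TPM in SIGLEC12. As a share of protein-coding TPM, the members took 10.3% and 7.44% in Control and 9.80%, 11.3% and 9.48% in SIGLEC12. Control replicate 1 lies inside the SIGLEC12 range and Control replicate 4 below it, so the groups overlap: 8.89% ± 2.04 (SD, n = 2) against 10.2% ± 0.974 (SD, n = 3), a difference of 1.30 percentage points that is smaller than the SD of the Control samples.

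**Figure D3:**
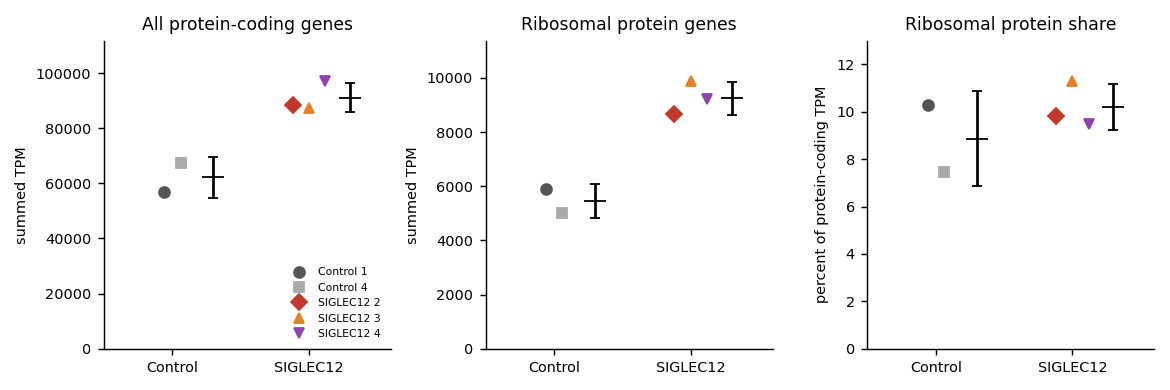
Summed TPM of all protein-coding genes (left), summed TPM of the ribosomal protein genes (middle) and the latter as percent of the former (right), for each sample, with the mean and SD of each group beside the points. Both sums separate the groups, while the share in Control replicate 1 (10.3%) lies within the range of the SIGLEC12 samples (9.48% to 11.3%).

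The 2 Control samples differed from each other in these genes. As deposited, 73 of 81 members were higher in Control replicate 1 than in Control replicate 4, by a median of 0.20 on the log2 scale, whereas 20.1% of all tested genes were higher in replicate 1 and the median difference was -0.27. After rescaling, 80 of 81 members were higher in Control replicate 1, by a median of 0.44. On that scale Control replicate 4 lay below all 3 SIGLEC12 samples for 72 of 81 members, and Control replicate 1 lay below them for 11, within their range for 42 and above them for 28. Over all tested genes, Control replicate 4 lay below all 3 SIGLEC12 samples for 23.2% and Control replicate 1 for 40.0%. The all-gene shares for the other placements, and for the rescaled comparison of the 2 Control samples, are not given here. Control replicate 1 is also the sample with the highest squamous marker sum and the fewest genes at 1 TPM or more (7947, against 9532 to 10090 in the others). Without Control replicate 1 the rescaled median of the members was 0.40, and without Control replicate 4 it was -0.06, so the direction after rescaling depends on which Control sample is used. Among the SIGLEC12 samples, replicate 3 was the highest sample as deposited for 50 of 81 members.

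Both subunits differed alike. The 33 tested genes of the small subunit had a median log2 fold change of 0.73 as deposited and 0.18 rescaled, and the 45 of the large subunit 0.70 and 0.16. The ratio of summed small-subunit to large-subunit TPM was 0.977 in both Control samples and 0.979, 1.02 and 0.989 in the SIGLEC12 samples, so it was similar in all samples. The sums cover unlike numbers of genes and leave out the near-identical copies described below, so they do not measure the balance of the subunits. The 3 P-stalk genes took 7.17% and 7.02% of the member TPM in Control and 7.79%, 6.86% and 6.56% in SIGLEC12, and these ranges overlap.

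Among small-subunit genes, Rps14, whose protein lies at the platform of the subunit and whose human gene is lost in the 5q deletion form of myelodysplasia, had the largest difference of the family. Its level was 68.8 and 68.9 TPM in the Control samples and 152, 246 and 175 TPM in the SIGLEC12 samples. The groups do not overlap and the Control samples agree closely. The log2 fold change was 1.43 ± 0.28 (SE, adjusted p = 0.0974) as deposited and 0.88 ± 0.29 (adjusted p = 0.457) rescaled, and the groups did not overlap on either scale. No near-identical copy of its coding sequence was found among the entries. Its gene model spans chromosome 18, 60747098 to 60778546 (GRCm38).

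Rps27 (chromosome 3, 90212522 to 90213651), which encodes a zinc-finger protein of the small subunit, was the highest member. It stood at 145 and 136 TPM in Control and at 251, 373 and 302 TPM in SIGLEC12, with replicate 3 the highest and no overlap. The log2 fold change was 1.11 ± 0.26 as deposited and 0.56 ± 0.27 rescaled. Its paralog Rps27l, known as a p53-responsive gene, was far lower, at 16.1 and 19.2 TPM in Control and 27.3, 42.3 and 35.7 TPM in SIGLEC12, and its log2 fold change was 0.94 ± 0.26 (adjusted p = 0.0974). Both paralogs kept groups that did not overlap after rescaling.

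Rps21, which sits at the back of the small subunit, measured 65.5 and 54.0 TPM in Control and 98.6, 145 and 121 TPM in SIGLEC12 (log2 fold change 1.0 ± 0.27), and after rescaling its groups overlapped. Rpsa, the ribosomal protein also known as the laminin receptor precursor, measured 132 and 104 TPM against 221, 233 and 246 TPM, with no overlap and a log2 fold change of 0.98 ± 0.23. Rps24, among the 5 highest members, measured 180 and 137 TPM against 244, 270 and 243 TPM (log2 fold change 0.68 ± 0.24).

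Rps19, which is often mutated in Diamond-Blackfan anemia, had a log2 fold change of 0.74 ± 0.22, close to the family's median. Rps3, at the mRNA entry site, had 0.69 ± 0.23, and Rps27a, which is made as a fusion with ubiquitin, had 0.59 ± 0.24. Their rescaled values were 0.20, 0.15 and 0.04, and none of these 3 separated the groups on that scale. Rps6, the substrate of the S6 kinases downstream of mTORC1, was a member whose groups overlapped as deposited: 120 and 88.7 TPM in Control and 118, 142 and 146 TPM in SIGLEC12, with a log2 fold change of 0.38 ± 0.26 (adjusted p = 0.293).

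In the large subunit, Rpl41, which encodes a very short basic peptide, measured 155 and 123 TPM in Control and 245, 306 and 273 TPM in SIGLEC12 (log2 fold change 0.98 ± 0.24). The groups did not overlap on either scale. Rpl13a, known for its part in silencing interferon-induced mRNAs, had a log2 fold change of 0.92 ± 0.23 and Rpl38, known for patterning of the axial skeleton in mice, 0.97 ± 0.22. Rpl38 stood at 67.4 and 60.6 TPM in Control and at 119, 125 and 135 TPM in SIGLEC12 and did not overlap on either scale.

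Rpl5 and Rpl11, which bind the ribosomal 5S RNA and, when free, the p53 ligase Mdm2, were both higher in the SIGLEC12 samples. Rpl5 measured 10.3 and 9.48 TPM against 22.3, 16.7 and 23.2 TPM (0.98 ± 0.23), and Rpl11 50.2 and 36.5 TPM against 63.3, 85.2 and 78.4 TPM (0.80 ± 0.27). The groups of the Rpl5 entry alone stayed apart after rescaling and those of Rpl11 did not. Another entry, Gm15500, has a coding sequence identical to that of Rpl5 and held 5.73 times its mean (94.0 TPM). Summed with such copies, which are described below, Rpl5 measured 82.3 and 66.8 TPM in Control and 128, 142 and 133 TPM in SIGLEC12. The log2 fold change of this sum was 0.85 ± 0.23 as deposited and 0.30 rescaled.

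Paralogs were compared with their parents on the TPM scale, which is per length. Rpl22, which also binds viral RNA, measured 31.8 and 22.2 TPM in Control and 38.3, 42.9 and 50.6 TPM in SIGLEC12, and its paralog Rpl22l1 6.43 and 6.70 against 9.31, 12.9 and 12.3 TPM. Their log2 fold changes were 0.70 ± 0.26 and 0.71 ± 0.21, so the pair differed by about the same amount. Rpl7 stood at 66.1 to 134 TPM over all samples and Rpl7l1 at 3.19 to 4.66 TPM. The log2 fold change was 0.81 ± 0.23 for Rpl7 and 0.28 ± 0.16 for Rpl7l1, and the latter is understated by the pseudocount of 1 at this low level.

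Of the P-stalk genes, Rplp0 encodes the base that anchors to the large subunit, and Rplp1 and Rplp2 the acidic proteins that attach to it. Rplp0 measured 118 and 113 TPM in Control and 216, 250 and 207 TPM in SIGLEC12. Rplp1 measured 197 and 146 TPM against 291, 261 and 238 TPM. Rplp2 measured 108 and 93.2 TPM against 168, 167 and 159 TPM. None of the 3 overlapped between the groups as deposited, with log2 fold changes of 0.95 ± 0.23, 0.63 ± 0.25 and 0.71 ± 0.22. After rescaling only Rplp0 (0.40 ± 0.24) did not overlap. Of all tested genes, 54.1% were higher without overlap as deposited and 15.6% rescaled.

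The groups overlapped as deposited for 5 members: Rpl36a, Rpl21, Rps12, Rpl27a and Rps6. The first 4 of these, with Rpl7l1, had the smallest log2 fold changes of the family, from 0.26 to 0.28 as deposited and from -0.27 to -0.16 after rescaling. Each of the 5 members with overlapping groups has copies of its coding sequence elsewhere in the table. A search of the 83 protein-coding members' coding sequences against the GENCODE M21 transcripts of the table found 345 entries with at least 97% identity over at least 80% of the sequence, for 70 members. Of these copies 312 had a mean under 1 TPM, and 19 had at least 10 TPM. For 12 members the copies together exceeded the gene itself.

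The stretches below show why a read from these genes cannot always be placed. The coding sequence of Rpl12 (chr2:32961559-32965345, plus strand, 495 bases) is identical in the processed pseudogene Gm10275 (chr10:29698746-29699380, minus strand), and its first 60 bases are given once. The coding sequences of Rpl37 (chr15:5116645-5119140, plus strand) and Rpl37rt (chr5:115102923-115110268, minus strand) differ at 1 of 291 bases, and those of Rpl35 (chr2:39001580-39005624, minus strand) and Gm2000 (chr1:156366040-156366484, plus strand) at 1 of 369 bases. The stretches of 60 bases around the difference are given 5′ to 3′ with the differing base in capitals. Counted from the A of the start codon, the differences are G249A for Rpl37 against Rpl37rt and C117T for Rpl35 against Gm2000. Coordinates are those of the genes in GRCm38.
Rpl12 and Gm10275: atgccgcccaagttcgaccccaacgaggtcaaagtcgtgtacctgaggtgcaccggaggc
Rpl37: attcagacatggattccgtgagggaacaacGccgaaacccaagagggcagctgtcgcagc
Rpl37rt: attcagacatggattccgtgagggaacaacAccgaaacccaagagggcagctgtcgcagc
Rpl35: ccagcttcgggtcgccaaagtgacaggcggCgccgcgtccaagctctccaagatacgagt
Gm2000: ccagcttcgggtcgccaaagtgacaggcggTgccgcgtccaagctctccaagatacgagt

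Rpl12, a protein of the stalk base, was the lowest tested member, at 2.99 and 3.09 TPM in Control and 3.39, 4.31 and 4.40 TPM in SIGLEC12. Gm10275 held 136 and 151 TPM in Control and 218, 271 and 271 TPM in SIGLEC12, so that the entry with the identical coding sequence had 57.6 times the mean of the gene. Summed with its copies, Rpl12 stood seventh in the family by mean level, and its log2 fold change went from 0.31 ± 0.17 to 0.80 ± 0.23.

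The same held for other members with identical copies. Rpl10, an X-linked gene whose protein joins the large subunit late, measured 11.0 and 12.4 TPM in Control and 19.9, 28.0 and 27.0 TPM in SIGLEC12, while Rpl10-ps3 held 107 and 105 TPM against 199, 208 and 191 TPM. The gene alone had a log2 fold change of 1.02 ± 0.24 and the sum 0.92 ± 0.22, so Rpl10 was no longer among the members with a change of at least 2-fold. Rps12 measured 5.85 to 9.70 TPM over all samples, and its copies Rps12-ps3 and Rps12l1, the latter a member by its symbol, had means of 124 and 92.0 TPM. The log2 fold changes were 0.27 ± 0.22 for Rps12, 0.49 ± 0.28 for Rps12l1 and 0.57 ± 0.26 for the sum of Rps12 and all its copies. Rpl27 had a mean of 5.09 TPM against 116 TPM for Rpl27-ps3, and summing moved its log2 fold change from 0.60 ± 0.20 to 0.96 ± 0.22.

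Summing also separated the groups where the gene alone did not. Rpl27a measured 12.2 and 9.28 TPM in Control and 10.6, 15.0 and 14.3 TPM in SIGLEC12, and with its copies 139 and 112 against 188, 203 and 193 TPM. Rpl21 went from 22.3 and 13.7 against 22.1, 18.8 and 22.9 TPM to 54.7 and 43.2 against 73.6, 73.4 and 80.5 TPM. Rps6 went from the values above to 149 and 118 against 229, 191 and 212 TPM, since Rps6-ps4 held 29.4 and 29.3 TPM in Control and 110, 49.1 and 65.4 TPM in SIGLEC12. In SIGLEC12 replicate 2 the pseudogene entries Rps6-ps4 and Gm10443, a copy of Rps28 (64.4 TPM there and 12.5 to 33.7 elsewhere), were both at their highest, so the split between gene and copy differed between samples.

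With all copies summed, 80 members were tested, all 80 were higher in SIGLEC12 with groups that did not overlap, and 69 had an unadjusted p of 0.05 or less. In the same limma fit 54.1% of all 10303 tested genes were higher without overlap, and 33.4% were higher at that p. The median log2 fold change was 0.72 as deposited and 0.17 rescaled, so the family's median did not depend on the copies, while single low members did. No member passed the adjusted threshold (smallest adjusted p 0.0979).

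**Figure D4:**
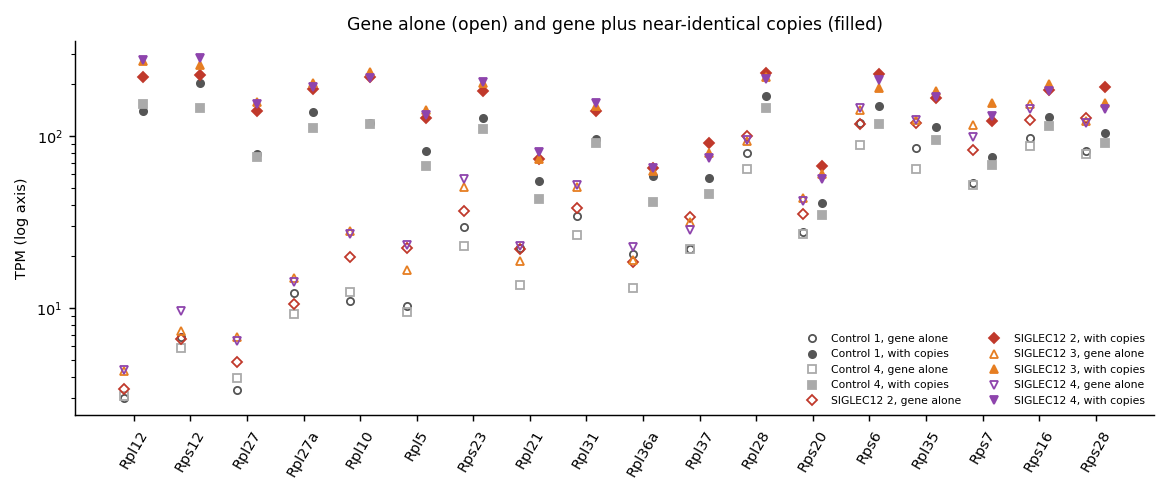
Level of the 18 ribosomal protein genes whose near-identical copies add more than 10% to the gene, in TPM on a log axis for each sample, for the gene alone (open symbols) and with its copies summed (filled symbols). Rpl12, Rps12 and Rpl27 lie under 10 TPM alone and above 70 TPM with their copies, and with copies every SIGLEC12 point lies above both Control points.

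The start of a ribosomal protein gene bears on its translation through the TOP stretch, so the sequence around the start was examined. RefSeq promoters (GRCm38.p6, 250 bases before and 50 after the start) were matched by symbol for 64 members. Windows of 30 bases, 15 before the annotated start and 15 from it on, are shown for members described above, 5′ to 3′ on the gene's strand, with runs of at least 8 C and T in capitals. The annotated start can lie a few bases from the position used in these tissues. The windows are Rpl13a (chr7:45128731-45128760, minus strand), Rps6 (chr4:86857353-86857382, minus), Rps27 (chr3:90213634-90213663, minus), Rpl38 (chr11:114668565-114668594, plus), Rplp2 (chr7:141447636-141447665, plus) and Rpl22l1 (chr3:28805493-28805522, plus), which hold such a run, and Rpsa (chr9:120127751-120127780, plus) and Rpl7l1 (chr17:46782642-46782671, minus), which do not.
Rpl13a: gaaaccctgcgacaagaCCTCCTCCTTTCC
Rps6: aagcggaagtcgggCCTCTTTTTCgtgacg
Rps27: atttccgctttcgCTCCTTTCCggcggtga
Rpl38: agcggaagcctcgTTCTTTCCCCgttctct
Rplp2: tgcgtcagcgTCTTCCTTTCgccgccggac
Rpl22l1: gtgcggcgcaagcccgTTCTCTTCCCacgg
Rpsa: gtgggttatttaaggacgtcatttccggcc
Rpl7l1: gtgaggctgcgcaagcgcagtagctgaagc

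A run of at least 8 C and T in this window was found for 28 of 64 members (43.8%), for 9 of 69 mitochondrial ribosomal protein genes (13.0%) and for 13.9% of all 27025 genes with a promoter entry. Some members have several annotated starts, and a member was counted if the window of any start held a run. The 28 include the untested pseudogene entry Rpl32l. In the full promoter of 300 bases, on either strand, CCGGAAG, the core bound by ETS factors, occurred in 40.6% of the members, 37.7% of the mitochondrial ribosomal protein genes and 9.93% of all genes, and CTTTCC in 51.6%, 30.4% and 29.3%. CTTTCC is itself a pyrimidine run and overlaps the first feature. The presence of a run did not go with the size of the change: the median log2 fold change as deposited was 0.71 for the 27 tested members with a run and 0.72 for the 33 without.

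Several ribosomal proteins host small nucleolar RNAs (snoRNAs) in their introns, which are released from the spliced intron and guide the modification of ribosomal RNA. The table holds 59 snoRNA entries inside 30 members, 58 of them on the strand of the host. 11 were listed at 0 in all samples and 38, in 22 hosts, were tested. Whereas all hosts were higher in SIGLEC12, 25 of the 38 snoRNA entries were lower and 13 higher, with a median log2 fold change of -0.43 as deposited, beside 0.67 for their hosts. After rescaling 30 of 38 were lower, with a median of -0.83, beside 5058 of all 10338 tested genes lower and a median of 0.01. Rescaling divides each entry by a protein-coding total that was higher in SIGLEC12, so it lowers every entry there. For 34 entries the change was below that of the host. Many of these entries lay at a few TPM, where the pseudocount of 1 shrinks log2 fold changes more than at the level of most hosts. The count of 34 and the medians therefore hold for this scale only. At an unadjusted p of 0.05 or less 4 entries were lower and 1 higher, beside 0.909% and 33.4% of all tested genes. The groups did not overlap for 8 that were lower and 3 that were higher, beside 1.67% and 54.1% of all tested genes. None passed the adjusted threshold.

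The largest difference was that of Snord32a, a box C/D snoRNA in an intron of Rpl13a (chromosome 7, 45127382 to 45127464, minus strand). Snord32a measured 29.4 and 17.1 TPM in Control and 8.85, 7.38 and 8.54 TPM in SIGLEC12, and its host Rpl13a 131 and 108 TPM against 211, 245 and 222 TPM. Neither overlapped, and they differed in opposite directions: -1.34 ± 0.27 for Snord32a (adjusted p = 0.0974) and 0.92 ± 0.23 for Rpl13a. Snord21, in Rpl5, measured 16.7 and 6.10 TPM against 2.64, 3.50 and 4.47 TPM (-1.33 ± 0.40), and overlaps an exon of some transcript of its host, which Snord32a does not. The most abundant entry, Snord15b, which overlaps an exon of some transcript of Rps3, measured 119 and 118 TPM against 99.9, 76.7 and 36.6 TPM (-0.85 ± 0.43), and its neighbour Snord15a in the same gene had a log2 fold change of -0.12 ± 0.22.

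The entries of a single host did not all differ alike. Gm26448, a snoRNA entry in Rpsa, was higher, as its host was, and measured 28.2 and 25.5 TPM in Control and 32.3, 47.3 and 37.9 TPM in SIGLEC12 (0.51 ± 0.25). Snora62, also in Rpsa, measured 2.24 and 3.16 TPM against 0.354, 1.25 and 1.27 TPM (-0.95 ± 0.28). Snora78 lies in Rps2 on the opposite strand, and its log2 fold change was -0.44 ± 0.34, beside 0.83 for Rps2. These entries are short, reads of unspliced host RNA can fall on them, and protein-coding TPM as a whole was higher in SIGLEC12. The part of each in the result was not tested.

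**Figure D5:**
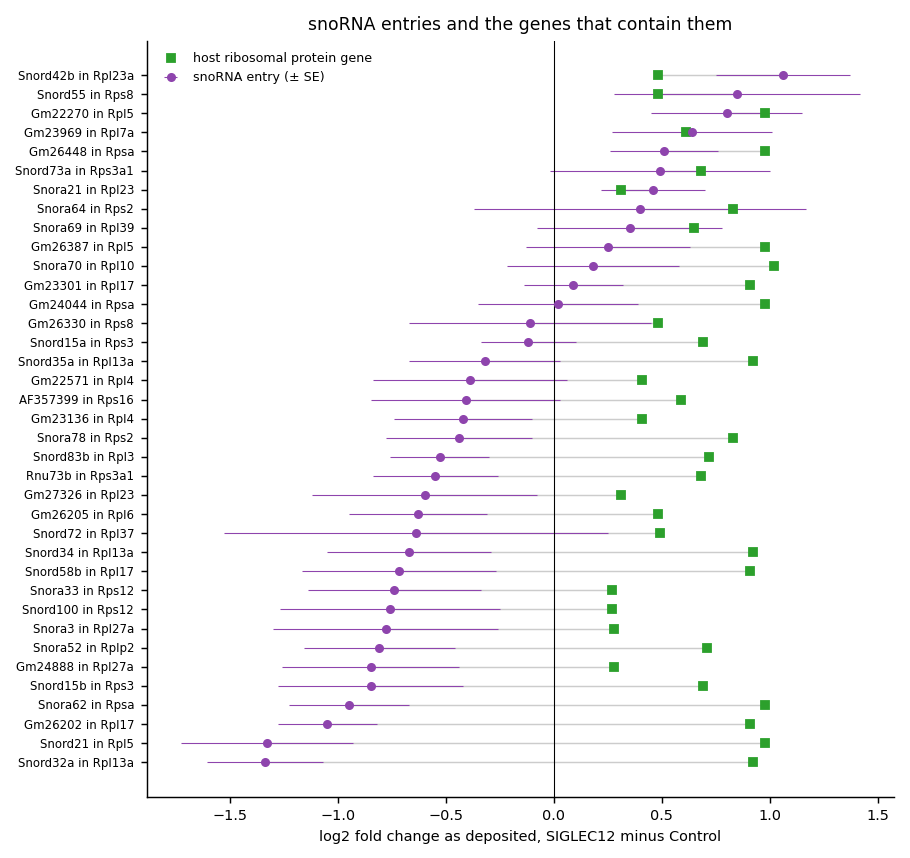
Log2 fold change as deposited, SIGLEC12 minus Control, of 37 of the 38 tested snoRNA entries (circles, with standard error) and of the ribosomal protein gene that contains each (squares). For 33 of these 37 the circle lies to the left of the square, and 24 circles lie below 0 while every square lies above it.

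Ribosomal proteins whose symbols fall outside the rule differed in the same direction as the members. Fau, which encodes a ubiquitin-like protein fused to a small-subunit protein, measured 115 and 97.2 TPM in Control and 181, 201 and 173 TPM in SIGLEC12 (0.80 ± 0.23). Rack1, a scaffold on the small subunit, had a log2 fold change of 0.90 ± 0.23 and Rpl36al, a copy of Rpl36a, 0.61 ± 0.21. None of these 3 overlapped between the groups, beside 54.1% of all tested genes that were higher without overlap.

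A list of 26 genes with TOP mRNAs outside the member rule was made mostly of translation genes. It includes Fau and Rack1 from above and a few genes of other function, such as Vim. Of the 26, 14 were higher at an unadjusted p of 0.05 or less and 0 lower, beside 33.4% and 0.909% of all tested genes. Their median log2 fold change was 0.55 as deposited and 0.02 rescaled, beside 0.38 and 0.01 over all tested genes. Eef1a1, the elongation factor that delivers aminoacyl-tRNA, measured 347 and 344 TPM in Control and 615, 686 and 616 TPM in SIGLEC12 (0.88 ± 0.21, adjusted p = 0.0974). Eef2, the translocase, measured 88.0 and 99.7 TPM against 139, 103 and 131 TPM (0.40 ± 0.25). Both had groups that did not overlap, beside 54.1% of all tested genes that were higher without overlap. Their rescaled log2 fold changes were 0.33 and -0.15.

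Genes that make ribosomes had smaller differences than the genes of the ribosome itself. Of 54 ribosome biogenesis genes 52 were tested, of which 12 were higher and 1 lower at an unadjusted p of 0.05 or less, beside 33.4% and 0.909% of all tested genes. Their median was 0.22 as deposited, beside 0.38 over all tested genes, and -0.15 rescaled. It was 0.13 without SIGLEC12 replicate 4, beside 0.35 over all tested genes. For the 13 genes with at least 5 TPM in at least 2 samples it was 0.38, beside 0.60 over all genes at that filter. The gene that was lower was Taf1d, a subunit of the RNA polymerase I selectivity factor, at 18.6 and 13.6 TPM in Control and 6.33, 8.98 and 9.67 TPM in SIGLEC12 (-0.88 ± 0.26, adjusted p = 0.0988). Ncl and Fbl, which encode the nucleolar proteins nucleolin and fibrillarin, had log2 fold changes of -0.01 ± 0.27 and 0.09 ± 0.22, and Myc, a regulator of both ribosome biogenesis and ribosomal protein genes, 0.08 ± 0.17. The groups of all 3 overlapped. Of 13 tested chaperones of ribosomal or nascent proteins, 2 were higher and 0 lower at that p, with medians of 0.38 as deposited and 0.02 rescaled. This list shares genes with the TOP list, and Btf3, 1 of the 2, is on both. Of 19 tested genes of mTORC1 and TOP control 1 was higher and 0 lower, with medians of 0.30 and -0.15. The same shares of all tested genes, 33.4% higher and 0.909% lower, stand beside both counts. Without Control replicate 1 the deposited medians were 0.24 for the chaperones and 0.16 for the mTORC1 list, beside 0.26 over all tested genes. Larp1, which binds TOP mRNAs, measured 6.12 and 6.19 TPM in Control and 6.62, 4.36 and 7.40 TPM in SIGLEC12. No gene of these lists passed the adjusted threshold.

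The mitochondrial ribosome is built from a separate set of nuclear genes, of which 79 of 80 were tested. All 79 were higher in SIGLEC12, with a median log2 fold change of 0.61. Together the 80 genes summed to only 234 and 272 TPM in Control and 416 to 489 TPM in SIGLEC12. At such low levels per gene the pseudocount of 1 understates log2 fold changes. The SIGLEC12 mean of the sum was 1.83 times the Control mean, against 1.70 for the cytosolic genes. At an unadjusted p of 0.05 or less 70 were higher, beside 33.4% of all tested genes, and 76 had groups that did not overlap, beside 54.1%. After rescaling their median was 0.21, with 41 of 79 (51.9%) higher without overlap against 11 of 81 (13.6%) for the cytosolic genes and 15.6% of all tested genes. The Control samples, which differed for the cytosolic genes, were close here: the mitochondrial ribosomal protein genes took 0.410% and 0.404% of protein-coding TPM in Control and 0.470%, 0.558% and 0.498% in SIGLEC12, and these groups do not overlap. The difference between the families was not tested.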

How the data were processed

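RNA-seq of AOM/DSS colon tumors was compared between 2 Control and 3 SIGLEC12 samples. A further Control sample was not analysed here. The authors deposited a table of log2(TPM + 1) values per gene; the submitters' processing notes name kallisto 0.45.0 and GRCm38, whereas the study's methods name another kallisto version and a human reference. The entries carry mouse identifiers. The library kit is given as a stranded total RNA kit in the labels and as an mRNA kit in the study's methods, which also describe technical replicate libraries of each sample; whether a column averages these is not given in the sources used here. Depth per sample is unknown, because TPM keeps none. Identifiers were joined to GENCODE M21 (98.45% matched). Genes with at least 1 TPM in at least 2 samples (10338) were fitted with limma 3.58.1 (R 4.3.3, eBayes with trend, two-sided, no covariates) on the deposited log2 values, pseudocount 1, with Benjamini-Hochberg adjustment over all tested genes. Thresholds were an adjusted p of 0.05 with a 2-fold change, and an unadjusted p of 0.05 or less with a 2-fold change. "Rescaled" values were TPM divided so that the protein-coding total of each sample equals the mean total. Near-identical copies were found with blastn 2.17.0. The fit was tested on simulated data with known changes.

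Named were the 5 highest members, the 5 with the largest and the 5 with the smallest fold change, the P-stalk genes, paralogs with their parents, 11 members of known role, members that failed the filter and hosts of the 5 most abundant snoRNA entries. Members with copies (Rpl12, Rpl27, Rpl28, Rps28, Rpl31, Rpl35, Rpl37, Rps23, Rpl23) were added after their values were seen, as were Snord21, Snora62, Eef2, Ncl, Fbl, Myc and Larp1. The members and lists were chosen with earlier results of these data known. Alternatives were another pseudocount, other filters and scalings, sample weights and leaving out each sample. The summed copies and the rescaled fits without a sample were added after seeing the data. Some genes that the naming rule selects are not reported here.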

Additional observations from a re-analysis of the deposited data

How the results depend on the processing

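No paired analysis was possible because replicate number 4 alone occurs in both groups. No member and no gene passed the adjusted threshold under any alternative that used all 5 samples. Leaving out a sample gave 0 to 1 members higher (Rps14 without Control replicate 4), 0 to 962 genes higher and 0 to 97 lower (962 and 97 without Control replicate 4, 1 higher without SIGLEC12 replicate 4); a lone Control sample is assumed there to vary like the SIGLEC12 samples. The 4 members higher at the unadjusted threshold became 0 under rescaling to the protein-coding total, median-ratio size factors, quantile normalization and rescaling with the length trend removed, and 2 to 16 without a sample (16 without Control replicate 1, 13 without SIGLEC12 replicate 2, 2 without SIGLEC12 replicate 3). Of all tested genes, 3.97% were higher at that threshold with all samples, and 4.78%, 3.75% and 4.27% without SIGLEC12 replicates 2, 3 and 4. Without Control replicate 1, which leaves a lone Control sample, the median log2 fold change was 0.82 for the members and 0.26 over all tested genes. The family's median of 0.71 was 0.16, 0.15, 0.13 and 0.06 under those 4 scalings, 0.60 to 0.82 without a sample, and 0.69 to 0.72 under every other setting on the deposited scale. Rescaled, it was 0.40 and -0.06 without Control replicates 1 and 4, 0.19, 0.10 and 0.21 without SIGLEC12 replicates 2, 3 and 4, and 0.17 with copies summed. The difference in the share of protein-coding TPM was 1.30 percentage points, and -0.14 to 2.75 without a sample (2.75 without Control replicate 1, -0.14 without Control replicate 4). The cause of these changes was not tested. With a pseudocount of 0.1, 1087 genes were higher at the unadjusted threshold in place of 410. Of 78 medians of the 6 other gene lists tested this way under the alternatives, 10 were below 0, all under the 4 other scalings.

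Of 39 named members, 15 changed sign under an alternative (51 of 543 values). Rescaled to the protein-coding total, the log2 fold changes were -0.12 for Rpl12, -0.27 for Rpl21, -0.23 for Rpl23, -0.23 for Rpl27a, -0.12 for Rpl28, -0.26 for Rpl36a, -0.04 for Rpl37, -0.16 for Rpl7l1, -0.22 for Rps12, -0.06 for Rps12l1 and -0.16 for Rps6. With median-ratio factors the same genes in that order gave -0.13, -0.28, -0.24, -0.24, -0.13, -0.27, -0.05, -0.17, -0.23, -0.07 and -0.18. With quantile normalization they gave -0.07, -0.27, -0.22, -0.28, -0.20, -0.29, -0.12, -0.12, -0.22, -0.14 and -0.24, and Rps28 gave -0.04. With the length trend removed they gave -0.25, -0.36, -0.36, -0.36, -0.25, -0.35, -0.17, -0.19, -0.31, -0.12 and -0.29, and Rpl31, Rplp1, Rps27a and Rps28 gave -0.06, -0.02, -0.07 and -0.02. Leaving out a sample gave -0.07 to 0.59 for Rpl21 and -0.04 to 0.57 for Rpl36a, lowest without Control replicate 4 and highest without Control replicate 1.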

Other observations

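Genes often used as expression references did not stay level on the deposited scale. All 8 housekeeping references were higher in the SIGLEC12 samples, with a median log2 fold change of 0.58 as deposited and 0.03 rescaled, beside 0.38 and 0.01 over all tested genes. Of the 8, 2 had an unadjusted p of 0.05 or less, beside 33.4% of all tested genes that were higher at that p, and 6 had groups that did not overlap, beside 54.1%. Ppia, a cyclophilin, measured 96.4 and 83.4 TPM in Control and 119, 172 and 182 TPM in SIGLEC12 (0.78 ± 0.28, adjusted p = 0.116 by limma).

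Proliferation genes were all higher as deposited (16 of 16, median log2 fold change 0.60), as were 9016 of all 10338 tested genes. At an unadjusted p of 0.05 or less 10 of the 16 were higher, beside 33.4% of all tested genes. After rescaling 14 of 16 were higher, with a median of 0.15. Birc5, the mitotic survivin gene, measured 3.38 and 3.74 TPM in Control and 6.13, 6.55 and 8.83 TPM in SIGLEC12 (0.83 ± 0.21, adjusted p = 0.0974 by limma). With all samples the medians of the cytosolic ribosomal protein genes were 0.71 as deposited and 0.16 rescaled. Leaving out a Control sample moved the deposited medians of the 2 lists in opposite directions. Without Control replicate 1 the median was 0.43 for proliferation genes and 0.82 for ribosomal protein genes, and without Control replicate 4 it was 0.81 and 0.60. Over all tested genes the medians were 0.26 without Control replicate 1 and 0.52 without Control replicate 4.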
